A study of Mus musculus with 128 samples.

Results

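This account compares brown fat with white fat of the same animals in mice of the inbred strain SM/J on a high-fat diet. It uses 32 of the 128 libraries of the series: 16 of interscapular brown adipose tissue (brown fat) and 16 of reproductive white adipose tissue (white fat). Each brown fat library was paired with the white fat library carrying the same animal number, which gave 16 animals. They were 4 females and 4 males aged 20 weeks and 4 females and 4 males aged 30 weeks, so that every group holds separate mice. For comparison the text also uses the same depots of 16 SM/J mice on a low-fat diet and of 16 mice of the strain LG/J on the high-fat diet, with the same sexes and ages. No transgene, drug or other treatment is named for any of these groups. The series is about the growth of brown fat and the recovery of glucose control in obese SM/J mice, and the depot comparison asks which transcripts separate the tissue that expands from ordinary white fat in the same body. Reproductive fat is a different anatomical pad in females and in males.

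Brown fat burns fuel to make heat, through mitochondria whose uncoupling protein UCP1 lets protons return to the matrix without making ATP. Noradrenaline from sympathetic nerves starts this through β-adrenergic receptors, cyclic AMP and lipolysis. White fat stores triglyceride and secretes hormones such as leptin, and in obesity it takes up macrophages and lays down matrix.

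RNA was sequenced after removal of ribosomal RNA. The deposited values are normalised counts per gene, scaled by the authors separately for each table of 16 libraries, with totals of 17930804 to 20053406 per brown fat library and 18909584 to 20701987 per white fat library. There were 13252 genes in the brown fat table and 13985 genes in that of white fat. The 12820 genes found in both were rescaled together, so a level below is a scaled normalised count and a depot difference is log2 of the brown fat level minus log2 of the white fat level, each plus 1, relative to the typical shared gene. The 2 tables were made separately, so anything beyond a common factor that differed between them cannot be told apart from the depot. Genes on the sex chromosomes, and those the mitochondria encode, were not analysed here. A gene is called where its adjusted p is below 0.05 and its depot difference is at least 1 (2-fold) in either direction.

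Of the 12820 genes, 1366 were called higher in brown fat, which is 10.7% of the genes tested, and 1927 were called higher in white fat, which is 15%. The levels of the 2 depots did not overlap among the 16 animals for 4500 genes. Without joint scaling, values as deposited gave 940 and 2637 calls and scaling to the library total gave 1007 and 2487, because every difference then moved by -0.30 or -0.24 on the log2 scale. Calls higher in brown fat were 41.5% of all calls after joint scaling, 26.3% as deposited and 28.8% after scaling to the total. No gene called in one depot was called in the other under these settings.

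**Figure D1:**
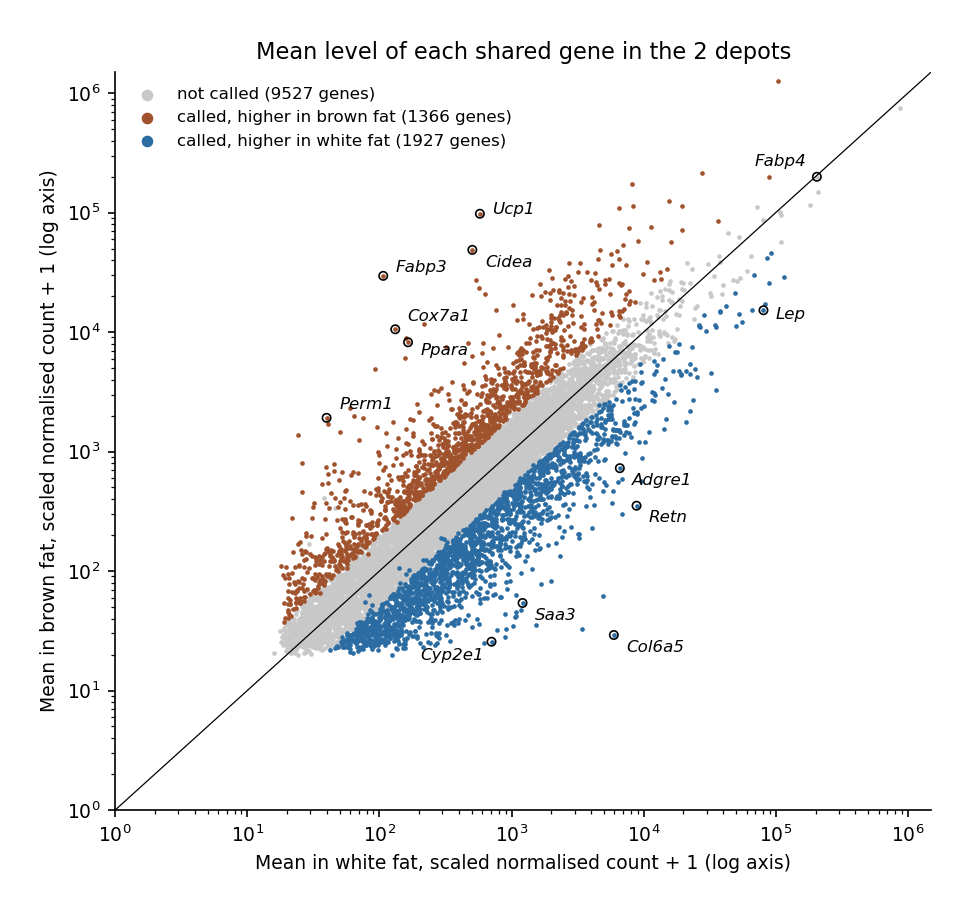
Mean level of each of the 12820 shared genes in white fat (x axis) and brown fat (y axis), as scaled normalised counts plus 1 on log axes, over 16 animals. Brown points are the 1366 genes called higher in brown fat and blue points the 1927 called higher in white fat; Ucp1 and Fabp3 lie far above the line of equal levels, and Col6a5 far below it.

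The sequences shown first belong to subunits of the respiratory chain and ATP synthase, a group in which most genes were called higher in brown fat. Among 59 respiratory chain and ATP synthase genes with 1 promoter window in RefSeq (build GRCm38.p6), 7 (11.9%) carried the core of the motif of the nuclear respiratory factor NRF1, GCGCATGCG, on either strand in the 250 bases before the start. The share was 3.28% of the 7673 genes of both tables with a window, 4.33% of those called higher in brown fat, 1.5% of those called higher in white fat and 1.48% of all 22862 RefSeq windows. All 7 genes were called higher in brown fat, as were most of the group they were drawn from. Complexes I to V had 34 of 35, 4 of 4, 10 of 10, 12 of 14 and 14 of 17 genes so called. The count therefore does not set the carriers of the motif apart. Each stretch below is written 5′ to 3′ on the gene's strand, with the motif in capitals.
Cox6a1 (chr5:115349086-115349147, minus strand, difference 2.5): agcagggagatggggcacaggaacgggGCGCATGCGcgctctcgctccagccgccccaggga
Cycs (chr6:50566596-50566657, minus strand, difference 2.88): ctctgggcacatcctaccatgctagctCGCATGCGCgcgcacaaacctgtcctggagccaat
Atp5k (chr5:108434415-108434476, minus strand, difference 2.40): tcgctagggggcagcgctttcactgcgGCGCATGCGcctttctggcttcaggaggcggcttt
Atp5g2 (chr15:102671055-102671116, minus strand, difference 1.31): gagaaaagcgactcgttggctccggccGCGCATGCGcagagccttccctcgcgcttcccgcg
Ndufa11 (chr17:56717675-56717736, plus strand, difference 1.77): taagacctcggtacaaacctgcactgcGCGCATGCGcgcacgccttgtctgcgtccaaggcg
Ndufa8 (chr2:36049339-36049374, minus strand, difference 2.06): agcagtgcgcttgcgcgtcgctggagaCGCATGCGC
Atp5l (chr9:44920949-44920992, minus strand, difference 2.13): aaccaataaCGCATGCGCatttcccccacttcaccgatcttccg

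The core site of the estrogen-related receptors, AAGGTCA, read on both strands, was in the windows of 6 of the same 59 genes (10.2%), against 2.59% of the 7673 genes of both tables and 4.05% of all RefSeq windows. It was in 3.97% of the windows of genes called higher in brown fat and in 2.99% of those called higher in white fat. Ndufb4, a complex I subunit with a depot difference of 2.12, had it 55 bases before its start, and Atp5l (2.13) carried both motifs. The other carriers were Ndufs5 (2.18, called higher in brown fat), Ndufb2 (0.90, not called), Atp5g3 (0.30, not called) and Atpif1 (-1.58, called higher in white fat).
Ndufb4 (chr16:37654391-37654450, minus strand): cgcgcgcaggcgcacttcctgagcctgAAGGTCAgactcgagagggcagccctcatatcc
Atp5l (chr9:44920743-44920782, minus strand): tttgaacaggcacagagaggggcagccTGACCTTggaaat
Of 3 other motifs searched in the same windows, the cyclic AMP element TGACGTCA was in 8.47% of the 59 windows against 2.88% of the genes of both tables, the GABPA site CCGGAAGT in 5.08% against 6.39%, and the E-box CACGTG in 8.47% against 8.43%. These are matches of letters in a short window and say nothing of binding in these tissues.

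Ucp1 was the hallmark of the brown fat libraries. Its level ran from 63716 to 132865 in brown fat, with a median of 96956, and from 85.4 to 2039.5 in white fat, with a median of 429. Every brown fat library was above every white fat library, and the depot difference was 7.92 ± 0.30 (SE, 16 animals, adjusted p = 8.1e-15), or 242-fold. Fabp3, a fatty acid binding protein of oxidative tissues, had the largest difference toward brown fat among called genes with a mean of at least 500 in the higher depot. Its level was 21219 to 40289 in brown fat and 28.8 to 275 in white fat (difference 8.40 ± 0.21, SE, adjusted p = 1.3e-17). Cidea, a lipid droplet protein of brown adipocytes, ran from 37314 to 57168 in brown fat and from 130.1 to 1393 in white fat (difference 6.80 ± 0.19, SE).

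Among the 15 leading genes on the brown fat side, several act in the mitochondrion or in its control. The list holds Cox7a1 (6.45) and Cox8b (5.45), subunits of cytochrome c oxidase, Gpd2 (5.65), the mitochondrial glycerol-3-phosphate dehydrogenase, and Coq8a (5.01), which is needed for coenzyme Q. Perm1 (5.59) and Ppara (5.69) are regulators of oxidative genes, Pank1 (5.81) makes coenzyme A, and Acot11 (5.19) is an acyl-CoA thioesterase first described in brown fat. Kng2 (5.88) encodes a kininogen, Ntrk3 (5.62) the receptor of neurotrophin-3, Mapt (5.33) the protein tau and Lrrc15 (5.91) a membrane protein. Each of the 15 was higher in brown fat in all 16 animals, as the rule for naming required.

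Of 25 brown and thermogenic adipocyte genes in both tables, 23 were called higher in brown fat and 1 higher in white fat, with a median difference of 3.51. The median over all genes tested was near 0 by construction of the scaling. Dio2, which activates thyroid hormone, ran from 704 to 3002 in brown fat and from 42.3 to 85.9 in white fat (difference 4.90). Otop1 (3.51), a proton channel, Kcnk3 (2.54), a potassium channel, and P2rx5 (3.39), an ATP-gated channel, were also called. Slc36a2, an amino acid transporter used as a brown fat surface marker, was called with a smaller difference of 1.3, since white fat held 3869 to 7980 of it. Epsti1 went the other way, at 60.3 to 128 in brown fat and 246 to 479 in white fat (difference -1.87).

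Elovl3, a fatty acid elongase that responds to cold, varied widely between animals. Its level ran from 18.0 to 3011 in brown fat and from 22.7 to 104 in white fat, so the depots overlapped, and 14 of 16 animals had more in brown fat (difference 2.83 ± 0.38, SE, adjusted p = 1.4e-06). Cyp2b10, Cpt1b and Slc27a2, 3 further genes of the list, had rows in the brown fat table only, with means of 186, 414 and 1731.

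White fat libraries differed from each other in Ucp1 by more than 20-fold, and some of the other brown fat genes moved with it while others did not. Log2 Ucp1 of white fat was set against each of the 24 other brown and thermogenic genes in both tables across the 16 white fat libraries, and against Ucp1 of brown fat, 25 relations in all. Pearson's r was positive for 21 of the 24 genes, with a median of 0.358, and 7 had a Benjamini-Hochberg adjusted permutation p of r below 0.05, all positive. With Cidea, r was 0.858 and Spearman's rho 0.912, and the permutation p of r was 1e-05, the smallest that 100000 permutations give (adjusted 0.00025). The values of r were 0.749 with Cox8b (permutation p = 0.00064, adjusted 0.008), 0.723 with Fabp3 (0.00149, adjusted 0.0109), 0.717 with Cox7a1 (0.00174, adjusted 0.0109) and 0.710 with Otop1 (0.00237, adjusted 0.0118). They were 0.629 with S100b (permutation p = 0.00926, adjusted 0.0386) and 0.614 with Letmd1 (0.0113, adjusted 0.0402). Spearman's rho was 0.756 with Cox8b, 0.697 with Fabp3, 0.615 with Cox7a1, 0.665 with Otop1, 0.556 with S100b and 0.653 with Letmd1, and its adjusted permutation p passed 0.05 for Cidea, Cox8b, Fabp3, Otop1 and Letmd1 but not for Cox7a1 (0.0545) or S100b (0.0854). Without the 2 animals farthest from the median, r was 0.867 with Cidea and between 0.453 (S100b) and 0.774 (Cox7a1) with the other 6. For these 7 genes r within females ran from 0.505 (Fabp3) to 0.967 (Otop1) and within males from 0.277 (S100b) to 0.876 (Cidea), with 8 animals each.

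Genes of the same list that these 16 libraries did not show to vary with Ucp1 of white fat included Dio2 (r = -0.0607, rho = -0.0794, permutation p = 0.821 and 0.77). Gmpr, a GMP reductase, had the lowest value (r = -0.395, rho = -0.365, permutation p = 0.132 and 0.165), and Ntrk3 was the other gene with a negative r (-0.0316, permutation p = 0.906). The values of 1 library share its scaling. Ucp1 of white fat did not track Ucp1 of brown fat in the same animals in a way these 16 animals could show (r = -0.205, rho = -0.226, permutation p = 0.45 and 0.398).

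**Figure D2:**
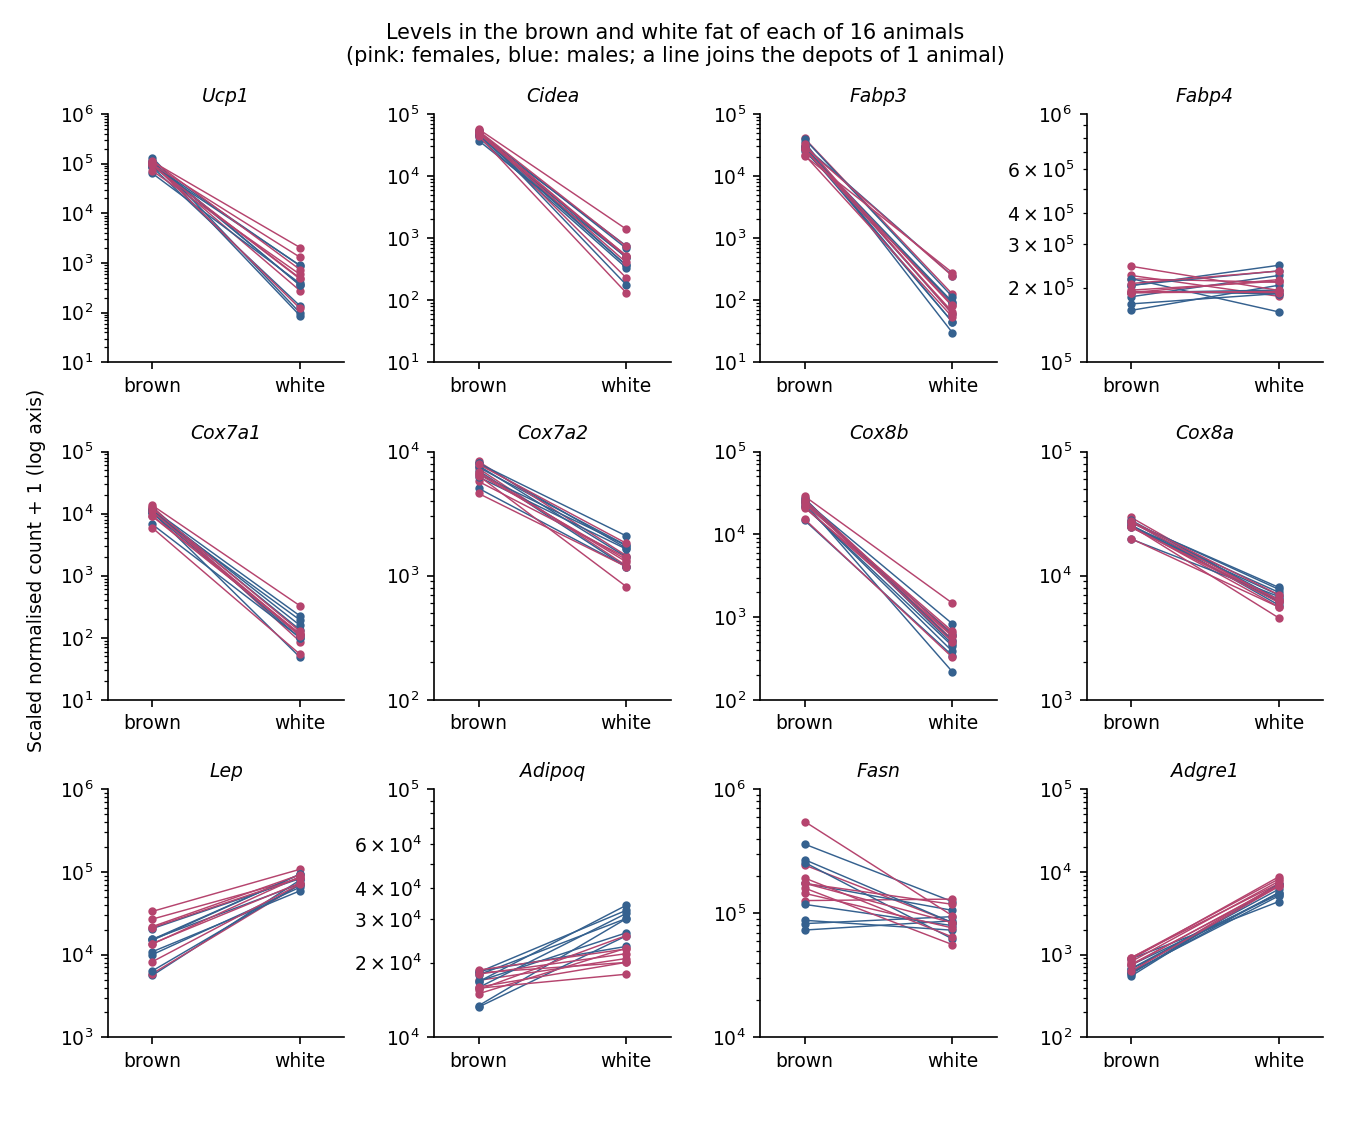
Levels of 12 genes in the brown and white fat of each of the 16 animals, as scaled normalised counts plus 1 on log axes; a line joins the 2 depots of 1 animal, pink for females and blue for males. Ucp1, Cidea, Fabp3, Cox7a1 and Cox8b separate the depots in every animal, Fabp4 does not, and Lep and Adgre1 run the other way.

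The respiratory chain was higher in brown fat almost throughout. Complex I had 34 of 35 subunits called higher in brown fat (median difference 2.47), complex II 4 of 4 (2.82), and complex III with cytochrome c 10 of 10 (2.80). Complex IV had 12 of 14 called higher in brown fat and 1 called higher in white fat (median 2.42), and ATP synthase 14 of 17 and 2 (median 2.11). The background was 10.7% and 15%. Ndufv1, the NADH-binding subunit, was at 26956 to 39595 in brown fat and 2526 to 3700 in white fat (difference 3.33 ± 0.04, SE). Ndufb2 was the complex I subunit that missed the 2-fold limit, with a difference of 0.90. Sdha, the catalytic subunit of complex II, had a difference of 3.01 and Cyc1, cytochrome c1, one of 3.31. Atp5b, the catalytic β subunit of ATP synthase, was among the highest transcripts of brown fat at 192239 to 245355, against 23560 to 36111 in white fat (difference 2.95).

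Atp5g1, one of 3 genes for the same c subunit of the ATP synthase rotor, was at 109 to 288 in brown fat and 346 to 659.7 in white fat (difference -1.66). Its relatives Atp5g2 and Atp5g3 had differences of 1.31 and 0.30. Atpif1, the inhibitor of the ATP synthase, was called higher in white fat (difference -1.58), at 98 to 169.7 in brown fat and 219 to 508 in white fat. Genes for the c subunit and other short mitochondrial transcripts have related copies in the genome, and how the counting treated reads that fit several places is not given in the sources used here.

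The depots differed in the subunit forms of cytochrome c oxidase. Cox7a1 and Cox8b are the heart and muscle forms of subunits VIIa and VIII, and Cox7a2 and Cox8a are the forms of most other tissues. Cox7a1 was at 5904 to 13573 in brown fat and 47.3 to 326 in white fat (difference 6.45 ± 0.13, SE), and Cox7a2 at 4599 to 8327 and 816 to 2090 (difference 2.26 ± 0.07, SE). Per kilobase of annotated exon, the level of Cox7a1 was 2.69 times that of Cox7a2 in brown fat (median over 16 animals, 2.27 to 3.13) and 0.148 times in white fat (0.0714 to 0.315). The ratio of Cox8b to Cox8a on the same scale was 1.55 in brown fat (1.28 to 1.82) and 0.149 in white fat (0.0641 to 0.360). In each pair the ratios of the 2 depots did not overlap, which does not depend on the lengths. With these lengths the muscle form was above the common form in every brown fat library and below it in every white fat library. For Cox8b (360 bases) and Cox8a (619 bases) the order in brown fat depends on the lengths. Before division by length, mean Cox8b was below mean Cox8a in brown fat of each sex and age group. In females aged 30 weeks the means were 22855 and 25384.

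The 100 bases before the start of these 4 genes are shown because their CG content differed between the forms. In the 250 bases before the start, the muscle forms held 4 (Cox7a1) and 1 (Cox8b) CG steps, and the common forms 14 (Cox7a2) and 11 (Cox8a), where the median over the 7673 genes of both tables was 16. None of the 5 motifs was found in these 4 windows.
Cox7a1 (chr7:30184071-30184170, plus strand): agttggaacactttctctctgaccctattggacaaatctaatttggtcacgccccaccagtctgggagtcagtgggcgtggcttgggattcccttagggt
Cox7a2 (chr9:79759854-79759953, minus strand): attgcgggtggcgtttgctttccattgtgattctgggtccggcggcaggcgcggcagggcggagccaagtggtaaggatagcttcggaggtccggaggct
Cox8b (chr7:140900447-140900546, minus strand): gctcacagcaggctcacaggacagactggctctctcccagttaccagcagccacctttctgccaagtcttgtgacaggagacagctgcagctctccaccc
Cox8a (chr19:7217617-7217716, minus strand): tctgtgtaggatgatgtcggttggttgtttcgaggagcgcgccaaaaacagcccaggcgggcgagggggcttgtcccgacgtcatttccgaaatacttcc

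Cox6a2, the muscle form of subunit VIa, did not follow Cox7a1 and Cox8b. It was called higher in white fat (difference -2.02 ± 0.56, SE, adjusted p = 0.0028), with 48.6 to 135 in white fat and 0.426 to 246 in brown fat, and 5 of 16 animals had more in brown fat. The 4 brown fat libraries highest in skeletal muscle markers held 127 to 246 of it and the other 12 held 0.426 to 78.6. Without those 4 animals the difference was -3.21. In males alone it was -1.14 and the gene was not called.

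The citrate cycle and fatty acid oxidation moved with the chain. Of 24 genes of the citrate cycle and pyruvate dehydrogenase, 22 were called higher in brown fat and none higher in white fat, with a median difference of 2.67. Pcx, pyruvate carboxylase, which refills the cycle and feeds lipid synthesis, was not called (difference -0.40), at 11621 to 16697 in brown fat and 13480 to 22084 in white fat. Of 24 fatty acid oxidation genes, 19 were called higher in brown fat and 2 higher in white fat (median 2.76). Acadvl, the very long chain acyl-CoA dehydrogenase, had a difference of 4.14 and Hadhb, a subunit of the trifunctional protein, one of 3.76.

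Carnitine palmitoyltransferase 1, the entry step of long-chain fatty acids, divided by isoform. Cpt1a, the liver form, was at 689 to 1062 in brown fat and 2731 to 3913 in white fat (difference -1.94 ± 0.04, SE), while Cpt1b, the muscle form, had a row in the brown fat table only. Acaa1b, a peroxisomal thiolase, was the other member called higher in white fat (-1.0). It stood at the limit of 1, and its call was lost with any 1 of 7 animals left out (290, 653, 703, 704, 734, 740 or 756; -0.97 to -1.0) and without the 4 animals highest in muscle markers (-0.92).

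Mitochondrial carriers split as well, with 13 of 24 called higher in brown fat and 5 higher in white fat. Slc25a20, which carries acylcarnitines, had a difference of 3.41 and Slc25a42, which carries coenzyme A, one of 3.71. Slc25a10, the dicarboxylate carrier, was at 237 to 533 in brown fat and 4546 to 7019.5 in white fat (difference -3.97), and Slc25a13, an aspartate-glutamate carrier, had a difference of -2.82. The uncoupling protein relatives took opposite sides, Ucp3 with 2.11 and Ucp2 with -1.36.

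Sugar and amino acid fuels followed the brown fat side. Of 18 glycolysis and glucose uptake genes, 12 were called higher in brown fat and none higher in white fat (median 1.73), among them Slc2a4, the insulin-responsive glucose transporter (1.90), and Hk2, hexokinase II (2.26). Of 21 genes of branched-chain amino acid breakdown, 16 were called higher in brown fat (median 1.61), with Bckdha, a subunit of the branched-chain ketoacid dehydrogenase, at 2.53.

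**Figure D3:**
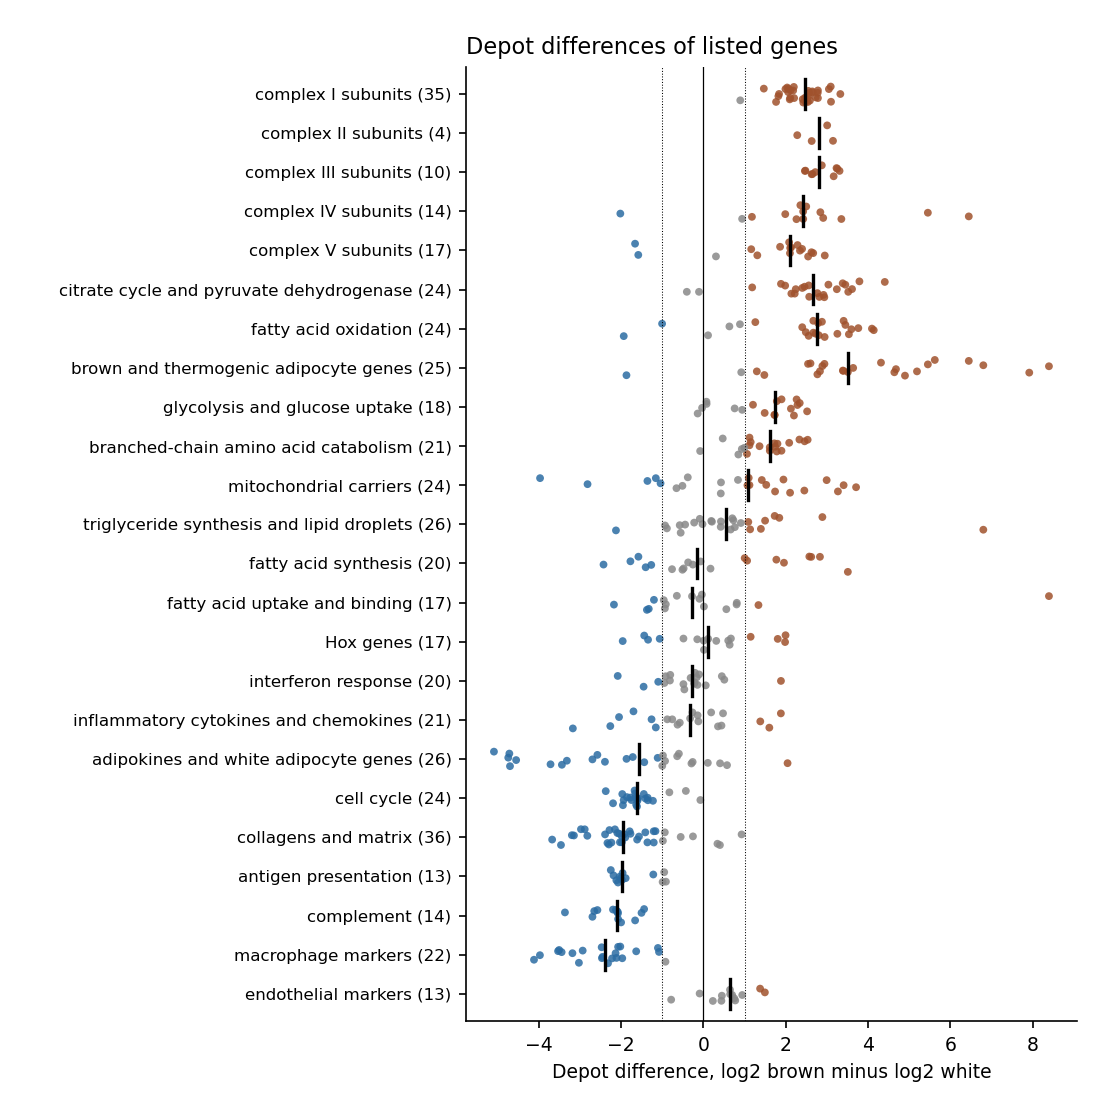
Depot difference (x axis, log2 brown minus log2 white) of the members of 24 gene lists measured in both tables, with the number of members in parentheses; a black bar is the list's median and dotted lines mark a 2-fold difference. Brown points are called higher in brown fat, blue points higher in white fat and grey points not called; the oxidative lists lie on the right and macrophage, complement, antigen presentation and matrix lists on the left.

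Regulators of the brown programme were called higher in brown fat for 13 of 27 members and higher in white fat for none. The coactivators Ppargc1a and Ppargc1b had differences of 4.09 and 3.80; Ppargc1a was at 1219 to 2157 in brown fat and 49.8 to 159 in white fat. Ppara, a fatty acid receptor, had 5.69, Esrrg and Esrra, estrogen-related receptors, 4.1 and 2.01, and Prdm16 and Ebf2, which specify brown adipocytes, 2.17 and 1.58. Pparg, the general adipocyte regulator, was called with 1.20 but not with scaling to the total (0.95) or as deposited (0.90). Irf4, a factor of fasting and thermogenesis, was not called and was lower in brown fat in 14 of 16 animals (difference -0.42). Of 14 repressors of the programme, 3 were called higher in white fat, among them Aldh1a1, a retinaldehyde dehydrogenase (-3.32), and none higher in brown fat. Over all genes tested, 15% were called higher in white fat and 10.7% higher in brown fat, so the repressor counts were near these shares.

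Signal reception differed by receptor and by cyclase. Adrb1 and Adra1a, adrenergic receptors, were called higher in brown fat (3.17 and 2.10). Adrb3, the main β-adrenergic receptor of rodent fat, was higher in brown fat in all 16 animals but by less than 2-fold (0.92 ± 0.11, SE, adjusted p = 3.3e-07), and its levels overlapped at 4231 to 7789 and 1528 to 6798. Adcy5, an adenylyl cyclase, went the other way and separated the depots fully, at 135 to 329 in brown fat and 3173 to 5266 in white fat (difference -4.17 ± 0.09, SE). Adcy10, the soluble cyclase, had 2.12 and Akap1, which anchors protein kinase A at mitochondria, 3.11. In the whole list 8 of 29 genes were called higher in brown fat and 2 higher in white fat, against 10.7% and 15% of all genes tested.

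Genes proposed for heat production without UCP1 did not share a side. The creatine genes Ckb (creatine kinase B), Gatm and Gamt (creatine synthesis) were called higher in white fat, with differences of -2.18, -1.98 and -2.25. Ckb was at 466 to 929.9 in brown fat and 2149.6 to 4398 in white fat. Alpl, a phosphatase assigned to creatine cycling, was called higher in brown fat (2.39). Both arms of the glycerol phosphate shuttle were on the brown fat side, cytosolic Gpd1 with 2.99 and mitochondrial Gpd2 with 5.65. The calcium channels Ryr2, Itpr1 and Itpr2 had 2.22, 1.49 and 2.5, and the calcium pump Atp2a2 had 0.69 and was not called.

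Fatty acid synthesis was divided, with 8 of 20 genes called higher in brown fat and 5 higher in white fat, and a median of -0.16. Acacb, the mitochondrial acetyl-CoA carboxylase that makes the inhibitor of carnitine palmitoyltransferase 1, had 3.51 and Acaca, the lipogenic carboxylase, 1.77. The level of Acacb per kilobase was 1.34 times that of Acaca in brown fat (median, 0.905 to 2.65) and 0.445 times in white fat (0.248 to 0.570). The joined annotated exons were 9632 bases for Acacb and 17074 for Acaca. Which of the 2 is higher in brown fat depends on these lengths. Fasn, fatty acid synthase, was at 73281 to 548071 in brown fat and 55922 to 130106 in white fat, and 13 of 16 animals had more in brown fat (difference 1.00 ± 0.19, SE). Its call was lost with scaling to the total (0.76), as deposited (0.71) and with any 1 of 8 animals left out (290, 646, 700, 704, 729, 756, 786 or 864; 0.90 to 1.0). The factor Mlxipl (2.57) and Thrsp (2.62), both tied to carbohydrate-driven lipogenesis, were called higher in brown fat. Scd2 (-2.43), Fads1 (-1.77), Fads2 (-1.58) and Elovl1 (-1.40), which desaturate or elongate fatty acids, and Insig1 (-1.27), a sterol sensor, were called higher in white fat. Scd1, the main desaturase of fat, was not called at 420373 to 1220630 and 670893 to 1117010.

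General adipocyte genes showed that both depots were rich in adipocyte transcripts. Fabp4 was at 161724 to 243599 in brown fat and 159488 to 245733 in white fat, a difference of -0.04 with a standard error of 0.08. Perilipin 1 (Plin1) had 0.19 and Cebpa 0.20. The Fabp3 level per kilobase was 0.794 times that of Fabp4 in brown fat (median, 0.486 to 1.32) and 0.00219 times in white fat (0.000805 to 0.00645). The lengths are of all annotated exons joined, 823 bases for Fabp3 and 4489 for Fabp4, and the ratio within a depot depends on them. Before division by length, Fabp3 in brown fat was at 21219 to 40289, below every Fabp4 value. The paired droplet proteins divided: Cidec, which enlarges lipid droplets, was at 11642 to 18822 in brown fat and 53305 to 80455 in white fat (difference -2.13). Per kilobase, Cidea was 5.30 times Cidec in brown fat and 0.0116 times in white fat (medians). Plin5, which ties droplets to mitochondria, had 2.89, Pnpla2, the first lipase of lipolysis, 1.40, and Pck1, which makes glycerol phosphate, 1.84.

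Col6a5, a chain of collagen VI, had the largest difference toward white fat among the genes named by the same rule, with 1268 to 14775 in white fat and 8.98 to 69.2 in brown fat (difference -7.47 ± 0.20, SE, adjusted p = 4.9e-17). Itgad, an integrin of tissue macrophages, had -6.80 and Oxtr, the oxytocin receptor, -6.38, at 2358 to 7449 in white fat and 22.7 to 138 in brown fat. Aldh1a7 (-5.52) is a close relative of Aldh1a1, so reads of the 2 may be hard to assign. Cyp2e1 (-4.91), Ffar2 (-4.79), a receptor of short-chain fatty acids, Slc16a12 (-4.75), a creatine and monocarboxylate transporter, Slc7a10 (-4.70), a neutral amino acid transporter of white adipocytes, and Kcnj14 (-4.72) followed. Saa3 (-4.68), an acute-phase serum amyloid, and Col6a6 (-4.65), another collagen VI chain, were also among the 15, as were Wfdc21, Sfrp5 and Retn.

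Of 26 adipokine and white adipocyte genes, 15 were called higher in white fat and 1 higher in brown fat, with a median of -1.58. Lep, leptin, was at 59146 to 107676 in white fat and 5609 to 33332 in brown fat (difference -2.58 ± 0.10, SE). Retn, resistin, was at 5317 to 11893 and 204 to 698 (difference -4.72). Mest, a marker of adipocyte enlargement, had -4.55, Sfrp5, a Wnt inhibitor, -4.74, Igf1 -3.32 and Psat1, an enzyme of serine synthesis, -3.72. Adiponectin (Adipoq) was lower in brown fat in all 16 animals but by less than 2-fold (-0.60 ± 0.06, SE). Nampt, an enzyme of NAD synthesis that is also secreted, was the member called higher in brown fat (2.04). Among factors that brown fat is known to secrete, Vegfa (2.45), Nrg4 (1.85) and Gdf15 (1.11) were called higher in brown fat, and Slit2 (-2.68), Metrnl (-2.01), Pltp (-2.03) and Epdr1 (-1.18) higher in white fat. The call of Gdf15 was lost with scaling to the total (0.87), as deposited (0.82) and without animal 290, 292 or 703 (0.95 to 1.0), and its difference at 30 weeks alone was 0.092. That of Epdr1 was lost in females alone (-0.90).

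Hox genes, which pattern the body from head to tail, fell on both sides. Hoxa4 (1.81), Hoxa5 (2.0), Hoxc4 (1.15) and Hoxc5 (1.98) were called higher in brown fat. Hoxc4 was not called with scaling to the total (0.90), as deposited (0.85) or in males alone (0.59). Hoxb6 (-1.06), Hoxb7 (-1.35), Hoxc8 (-1.96) and Hoxd3 (-1.44) were called higher in white fat. The call of Hoxb6 was lost without animal 655 (-0.97), in females alone (-0.94), at 20 weeks alone (-0.89) and with a pseudocount of 10 (-0.92). Hoxa9, Hoxa10, Hoxa11, Hoxb5, Hoxc9, Hoxc10 and Hoxd9 had rows in the white fat table only, with means of 104, 137, 18.5, 31.7, 103, 41.1 and 43.7. With Hoxd3 and Hoxb5 as exceptions, members called or listed on the white fat side were of paralogue group 6 or above, and all 4 members called higher in brown fat were of groups 4 and 5. Hoxa5 was at 335 to 557 in brown fat and 70.6 to 166 in white fat, and Hoxc8 at 26.9 to 257 and 238 to 735, with some overlap.

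Other developmental factors often had a row in a single table. Zic1 (mean 169), Lhx8 (75.6), Tbx15 (269), Tbx5 (87.2), Shox2 (62.4), En1 (23.1), Irx2 (25.6), Irx5 (54.0) and Osr2 (39.6) were in the brown fat table only. Wt1 (311), Bnc1 (72.5), Tcf21 (52.2) and Emx2 (33.1) were in the white fat table only. Wt1 and Bnc1 are also mesothelial markers, whose levels in white fat are given below. Of the factors in both tables, Gata6 (-2.70) and Osr1 (-2.69) were called higher in white fat and Meox1 (1.02) and Gata2 (1.04) higher in brown fat. Both calls were lost with scaling to the total (Meox1 0.77, Gata2 0.80) and as deposited (0.72 and 0.75), and that of Meox1 without animal 290 or 646 (0.99 each).

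**Figure D4:**
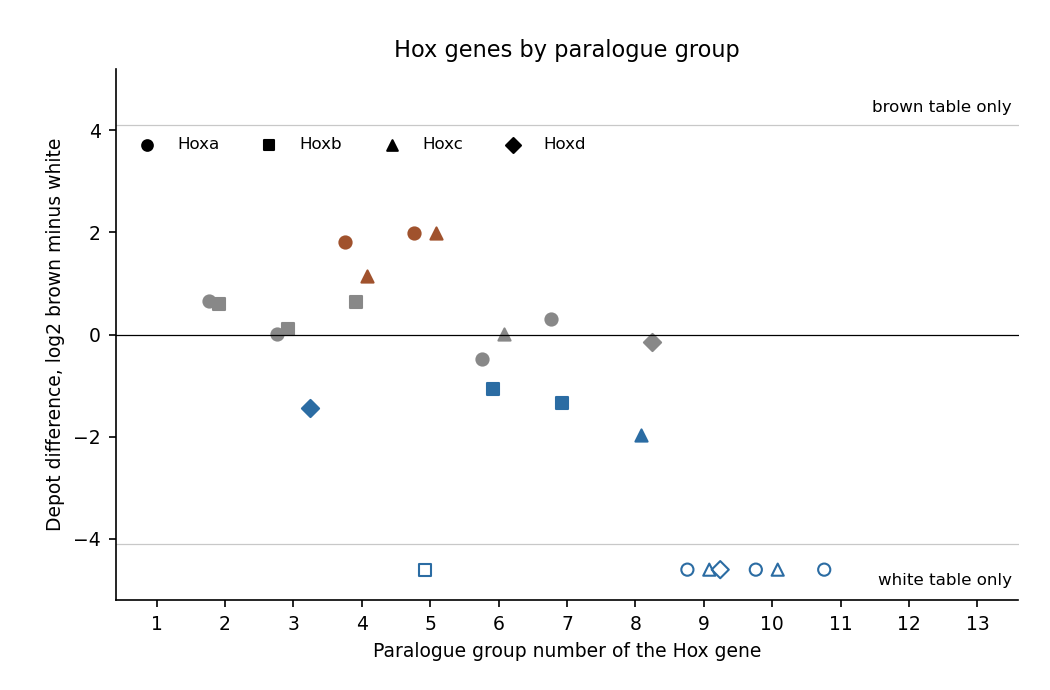
Depot difference (y axis, log2 brown minus log2 white) of Hox genes against their paralogue group number (x axis), with a symbol for each of the 4 clusters. Brown points are called higher in brown fat, blue points higher in white fat, grey points not called; open symbols below the lower line are the 7 genes with a row in the white fat table only and are not placed by value.

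Macrophage, complement, antigen presentation and matrix transcripts were mostly higher in white fat, and markers of other immune cells were less clear. In bulk tissue, fewer cells of a type and less RNA per cell cannot be told apart. Of 22 macrophage markers, 21 were called higher in white fat and none higher in brown fat, with a median of -2.38. The summed level of the list was 72028 to 112791 in white fat and 13147 to 20558 in brown fat. Adgre1, which encodes F4/80, was at 4377 to 8717 in white fat and 548 to 916 in brown fat (difference -3.18 ± 0.06, SE). Markers of lipid-laden macrophages had larger differences, with Trem2 at -3.97, Atp6v0d2 at -4.12, Gpnmb at -3.51, Mmp12 at -3.53 and Itgax (CD11c) at -3.45. Of 14 complement genes, all were called higher in white fat (median -2.09), with C4b at -3.37. C4b has a close copy, C4a, and reads of the 2 may be hard to assign. Of 13 antigen presentation genes, 10 were called higher in white fat and none higher in brown fat (median -1.98), H2-K1 at -2.18 among them. Of 10 dendritic cell, neutrophil and mast cell markers, 1 was called higher in each depot, S100a9, a neutrophil protein, in brown fat (1.34) and Tpsb2, a mast cell tryptase, in white fat (-1.28), and both overlapped between depots. S100a9 was at 0.23 in females alone and at 0.93 without the 4 animals highest in muscle markers, where it was not called. Of 15 T and NK cell markers, Gzma was in both tables and not called (-0.69), 6 were in the white fat table only and 8 in neither. Of 3 B and plasma cell markers in both tables, 2 were called higher in white fat.

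Of 36 collagen and matrix genes, 29 were called higher in white fat and none higher in brown fat (median -1.95). Col3a1, a fibrillar collagen, was at 60022 to 142800 in white fat and 12505 to 29295 in brown fat (difference -2.28). Col16a1 (-3.68), Col15a1 (-3.46), Col5a3 (-3.20) and Col6a1 (-3.15) had larger differences than Col1a1 (-2.09). Timp3, an inhibitor of metalloproteinases, was higher in brown fat in all 16 animals, by less than 2-fold (0.93). Cell cycle genes were called higher in white fat for 21 of 24 members (median -1.62), with Mki67 at 928 to 1971 in white fat and 281 to 718 in brown fat.

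Cytokines and vessels did not simply follow. Of 21 cytokine and chemokine genes, 6 were called higher in white fat, such as Spp1 (-3.17), Ccl9 (-2.26) and Ccl6 (-2.05), and 3 higher in brown fat. Those 3 were the neutrophil chemokines Cxcl1 (1.88) and Cxcl2 (1.6) and Ccl4 (1.38). The call of Ccl4 was lost in females alone (0.45) and at 30 weeks alone (0.89), and that of Cxcl2 in females alone (0.97). Cxcl1 varied more than 40-fold between brown fat libraries, from 47.4 to 1984, against 32.1 to 129.6 in white fat. Of 13 endothelial markers, Flt1 (1.49) and Kdr (1.38), the receptors of VEGF, were called higher in brown fat and none higher in white fat. Of 20 interferon response genes, Oas1a (-2.08), Oasl2 (-1.45) and Mx1 (-1.10) were called higher in white fat and Ifi27 (1.88) higher in brown fat. The call of Mx1 was lost in males alone (-0.72) and with a pseudocount of 10 (-0.92). Over all genes tested, 10.7% were called higher in brown fat and 15% higher in white fat. The cytokine and endothelial counts toward brown fat and the interferon count toward white fat were near these shares.

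Genes with a row in a single table show what else each pad held. There were 432 such genes in the brown fat table and 1165 in the white fat table, and 61 and 115 of them had a mean of at least 100. A missing row is not a measured 0, and no fold is given. Among the 12 highest in brown fat, Slc27a2 (903.6 to 3143), an acyl-CoA synthetase, Gldn (1074 to 2141), Cpn2 (654 to 1311), Tuba8 (445 to 871) and Lgr6 (331 to 817) were present in every animal within a 4-fold range. The other 7 were the skeletal muscle genes Myh4, Tnnt3, Myh1, Atp2a1, Tnni2, Ckm and Mb. Myh4, a fast myosin, ran from 0.638 to 10185.

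Muscle transcripts were high in some animals. The summed level of 22 skeletal muscle markers in brown fat was 68159 to 98394 in 4 males (animals 653, 656, 703 and 704) and 2624 to 39833 in the other 12 animals. Among those 12, females 862 and 864 were highest, at 35041 and 39833. Leaving out the 4 males therefore lowers the muscle signal but does not remove it. In white fat the 10 markers with a row summed to 1665 to 4511. Of the 10 muscle markers in both tables, 6 were called higher in brown fat, and 6 were called higher in brown fat and 2 higher in white fat without those 4 animals. The calls of each respiratory complex were as many without them, and the calls over all genes were 1397 and 1946. Muscle is a neighbour of the interscapular pad, and the part of this signal in single genes was not tested beyond these values.

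Mesothelial markers were on the white fat side. Of 13, 10 had rows in the white fat table only, among them Upk3b (37.5 to 1460), Msln and Krt19, and Lrrn4 was in both tables and not called (-0.29). The summed level of the list in white fat ran from 444 to 6014 between animals. The highest genes of the white fat table only were Folh1 (757 to 1382), Cdkl4 (318 to 1585), Pkhd1l1 (53.6 to 2029), C6 (543 to 937.5), a complement component, Upk3b, and Slc5a7 (296 to 831), a choline transporter. Cntn1, a neural adhesion protein, was at 977 ± 479 (SD, 8 animals) in females and 3.31 ± 3.39 in males. Jchain, a plasma cell gene, ran from 15.9 to 1458, and Myh15, Art2a-ps, Lrp2 and Dnajc6 completed the 12.

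The depot difference differed between females and males (adjusted p below 0.05) for 254 genes (1.98%) in which brown minus white was greater in females and 250 (1.95%) in which it was greater in males. Leaving out single animals moved these counts between 155 and 371 and between 107 and 439, and 51 and 25 genes passed without the 4 animals high in muscle markers. The leading genes differed mainly in white fat, which is a different pad in each sex. Foxp2, a forkhead factor, was at 9.23 ± 3.68 (SD, 8 animals) in white fat of females and 144 ± 58.2 in males, with 224 ± 53.9 and 166 ± 47.3 in brown fat. Nrn1, neuritin, had the reverse pattern in white fat, with 107 ± 35.9 in females and 6.75 ± 2.29 in males. Postn, a matrix protein, was at 27077 ± 3746 in white fat of females and 11386 ± 1771 in males, Mmp3 at 1315 ± 166 and 352 ± 101, Cxcl14 at 928.5 ± 449 and 292 ± 65.1, and Plekha6 at 806 ± 152 and 355 ± 105.

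Higher in white fat of males were Col8a1 (991 ± 252 against 374 ± 55.8 in females), Enpp2, autotaxin (4259 ± 441 against 2374 ± 389), Cyp1b1 (1889 ± 153 against 1173 ± 112), Plce1 (2473 ± 89.5 against 1615 ± 187) and Fer1l6 (52.6 ± 14.1 against 16.8 ± 4.75). Kng2, a leading brown fat gene, was at 126 ± 27 in white fat of females and 56.2 ± 15 in males. No subunit gene of complexes I to V passed this test. Adipoq passed it, with a difference between the sexes of 0.48 ± 0.11 (SE, adjusted p = 0.025), at 21489 in white fat of females and 29204 in males. Nnat, neuronatin, passed with 1.27 ± 0.30 (adjusted p = 0.026). Of 20 interferon response genes, 6 had a more negative depot difference in females and none in males.

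Between 20 and 30 weeks, 17 genes (0.133%) had a greater brown minus white difference at 30 weeks and 32 (0.250%) a greater one at 20 weeks. These counts depended on single animals, from 1 to 212 and from 7 to 241 with 1 animal left out. Lep passed this test, with a depot difference greater at 30 weeks by 0.95 ± 0.19 (SE, adjusted p = 0.043). Its call was lost without the 4 animals high in muscle markers and without pairing by animal, where no gene passed toward 30 weeks. Lep was not followed singly in the other alternative runs, several of which kept few of the 17 genes. Without animal 290, 2 of them were kept, and without animal 655, 1 was. Age was not tested within brown fat alone. Lep in brown fat was at 10415 ± 4275 (SD, 8 animals) at 20 weeks and 20015 ± 7895 at 30 weeks, with 80253 and 81031 in white fat. In brown fat of females it was at 10286 ± 3851 (SD, 4 animals, 5891 to 13633) at 20 weeks and 25824 ± 5612 (21218 to 33332) at 30 weeks, and the ranges did not overlap. In males it was at 10544.5 ± 5270.1 (5609 to 15291) and 14206 ± 4892 (10007 to 20659), and the ranges overlapped. White fat was at 75926 and 92245 in females and at 84580 and 69818 in males. Whether the age difference itself differed between the sexes was not tested. Slc4a4, a bicarbonate cotransporter, was at 9221 ± 1129 in brown fat at 20 weeks and 5860 ± 1101 at 30 weeks. Thbd, thrombomodulin, was at 1807 ± 568 and 1075 ± 158, Sema3f at 313 ± 180 and 195 ± 70.7, Hip1r at 908 ± 113 and 740.0 ± 89.1, and Cdv3 at 3996 ± 487 and 3164 ± 61.7.

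Higher in brown fat at 30 weeks were Cdsn (942 ± 179 against 428 ± 103), the chemokine receptor Cxcr4 (275 ± 30.2 against 164 ± 24.2), Col28a1 (385 ± 77.4 against 256 ± 65.9), Mr1 (264 ± 40.7 against 202 ± 36.3), Ifngr1 (5095 ± 455 against 3958 ± 594) and Gprin3 (169.9 ± 52.7 against 108 ± 37.7). Gldc, the glycine cleavage enzyme, was at 68.1 ± 18.7 in white fat at 20 weeks and 110 ± 37.9 at 30 weeks. Ucp1 did not pass, at 103119 and 92195 in brown fat at 20 and 30 weeks. No subunit gene of complexes I to V passed.

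On the low-fat diet the same strain had a different depot contrast for many genes. Brown minus white was greater on the high-fat diet for 2402 genes (19.4% of 12391 found in all 4 tables) and greater on the low-fat diet for 2400 (19.4%). Of these, 190 and 145 differed by at least 1 on the log2 scale. Greater is read with the sign here, so a less negative difference also counts as greater. Each table was scaled by the authors on its own, so table and diet cannot be told apart beyond a common factor, and as deposited the counts were 6474 and 757, with every difference moved by 0.21. Levels in this and the next comparison are rescaled over 64 libraries, so they differ slightly from those above.

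Fatty acid synthesis genes differed most often toward the low-fat diet. Of 20 fatty acid synthesis genes, 16 had a greater depot difference on the low-fat diet and 1 on the high-fat diet (14 and 2 with scaling to the total, 12 and 2 as deposited). The median depot difference was -0.16 on the high-fat and 1.62 on the low-fat diet. Acly, ATP citrate lyase, was at 29899 in brown fat on the high-fat diet and 137763 on the low-fat diet, with 12772 and 19496 in white fat (difference between diets -1.92 ± 0.25, SE, adjusted p = 5.8e-07). Elovl3 had a value of -3.93 ± 0.54 (SE). Fasn (-1.74), Me1 (-2.23), Slc25a1 (-2.36), Insig1 (-2.25) and Scd2 (-1.54) went the same way. No subunit gene of complexes I to IV passed, with median differences between diets of 0.06 or less; after scaling to the total 12 of 35 complex I subunits were greater on the high-fat diet, and as deposited 14.

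**Figure D5:**
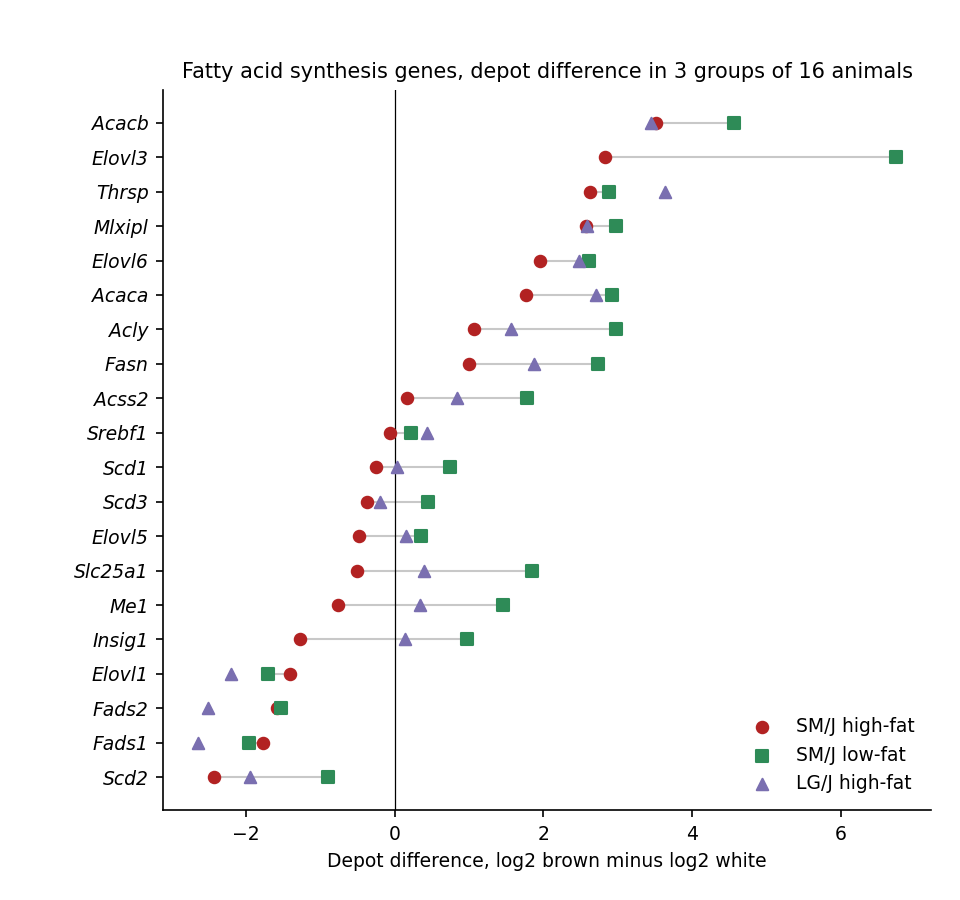
Depot difference (x axis, log2 brown minus log2 white) of 20 fatty acid synthesis genes in 3 groups of 16 animals each, fitted separately: SM/J on the high-fat diet (circles), SM/J on the low-fat diet (squares) and LG/J on the high-fat diet (triangles). Grey lines join the diets; the squares of Elovl3, Acly, Slc25a1, Me1 and Insig1 lie well to the right of their circles.

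Among other lists, 15 of 20 interferon response genes had a greater depot difference on the high-fat diet and 1 on the low-fat diet (17 and none after scaling to the total or as deposited). The list's median was -0.28 on the high-fat and -1.09 on the low-fat diet, so the excess in white fat was smaller on the high-fat diet. Of 24 adipokine and white adipocyte genes, 14 were greater on the high-fat and 1 on the low-fat diet, Nnat by 2.87, Adipoq by 1.13 and Lep by 0.84. The median of this list was -1.28 on the high-fat and -2.06 on the low-fat diet, again a smaller excess in white fat on the high-fat diet. The leading single genes were not confined to one depot. Eya2, a transcriptional cofactor, was at 517 ± 148 (SD, 16 animals) in brown fat on the high-fat diet and 67.1 ± 57.4 on the low-fat diet, Gpc1, a glypican, at 1417 ± 374 and 417 ± 184, and Slc2a3, a glucose transporter, at 363 ± 134 and 88.1 ± 34.1. Mgl2, a lectin of macrophages and dendritic cells, was at 24.7 ± 9.22 in white fat on the high-fat diet and 171 ± 91.6 on the low-fat diet. Plekha2 and Atp11a completed these 6, with brown fat at 662 ± 86.6 against 375 ± 73.4 and 1479 ± 148 against 907 ± 149.

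Greater on the low-fat diet were Lss, lanosterol synthase, with white fat at 2645 ± 575 on the high-fat diet and 1333 ± 339 on the low-fat diet, and Aldh1a7, with white fat at 1453 ± 489 and 217 ± 112. Acsf2, an acyl-CoA synthetase, was at 721.5 ± 184 in brown fat on the high-fat diet and 1593 ± 254 on the low-fat diet, Echdc1 at 716 ± 126 and 1285 ± 253, Gprc5b at 964 ± 82.6 and 1932 ± 253, and Ppp2r5b at 1408 ± 188 and 1967 ± 344.

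Against LG/J on the high-fat diet, brown minus white was greater in SM/J for 3235 of 12123 genes (26.7%) and greater in LG/J for 3172 (26.2%), with 404 and 205 differing by at least 1. The diet and strain comparisons share the SM/J high-fat animals. Of 35 complex I subunits, 18 had a greater depot difference in LG/J and none in SM/J (14 and none after scaling to the total, 11 and none as deposited), and the list's median difference was -0.23. Of 36 collagen and matrix genes, 25 were greater in SM/J and 1 in LG/J, with medians of -1.98 in SM/J and -2.40 in LG/J. Of 18 macrophage markers tested here, 11 were greater in SM/J and none in LG/J, with medians of -2.30 in SM/J and -2.95 in LG/J. Of 13 endothelial markers, 12 were greater in SM/J and none in LG/J, with medians of 0.62 in SM/J and 0.13 in LG/J. Lep had a less negative depot difference in SM/J, by 2.21 ± 0.28 (SE, adjusted p = 8.4e-08), with 15031 in brown fat of SM/J and 4010 in LG/J.

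Single genes with the smallest adjusted p were C4a, with white fat at 1162 ± 234 (SD, 16 animals) in SM/J and 30.9 ± 6.67 in LG/J, and Rab3ip, with brown fat at 423 ± 43.4 and 1207 ± 91.2. Kif16b was at 1063 ± 48.0 and 1833 ± 112 in brown fat, Ppa1, an inorganic pyrophosphatase, at 3411 ± 292 and 8794 ± 1199, and Aldh1a7 at 34 ± 17.4 and 470.3 ± 191. Nupr1 was at 1662 ± 328 and 443 ± 86.4 in white fat. Greater in SM/J were Gpt2, a mitochondrial alanine aminotransferase, at 6664 ± 1051 and 344 ± 69.0 in brown fat and 6502 ± 711 and 3048 ± 939.8 in white fat, H2-Q10 at 3647 ± 763 and 250.5 ± 109, Fam129a at 1716 ± 178 and 510.4 ± 100, Clmp at 183 ± 29.6 and 72.8 ± 12.7, Nid2 at 472 ± 98.8 and 241 ± 72.6, and Cachd1 at 219 ± 32.8 and 69.8 ± 19.7. For the last 3 white fat moved too, in the other direction: Clmp was at 915 ± 75.5 in SM/J and 1369 ± 249 in LG/J, Nid2 at 946 ± 147 and 2185 ± 469.6, and Cachd1 at 385 ± 66.5 and 792 ± 164. H2-Q10 and C4a belong to families of near-identical genes, and strain variants could change how reads map, which was not tested.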

How the data were processed

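Normalised counts per gene were used as deposited (signal values, fractional, never negative). Reads were aligned with STAR 2.6.0c to mm10 and edgeR was used, per the submitters' processing notes; its version and the counting step are not given in the sources used here. RNA was extracted from frozen fat and ribosomal RNA removed, per the labels' protocols. The authors scaled each table of 16 libraries separately. Depth in reads is unknown, since the normalised signal is not a read count.

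Here, genes of both depots' tables were scaled by the median of ratios (factors 0.889 to 0.919 in brown fat, 1.10 to 1.12 in white fat). Differences of log2(value + 1) were fitted with limma 3.58.1 (R 4.3.3, moderated variance with trend), with the animal as a block and centred sex and age terms, and p-values were adjusted by Benjamini-Hochberg over all genes; a pseudocount of 1 understates folds of low genes. The diet and strain tests add the second group of 16 animals. Genes without a row in a table were not analysed there. The steps were tested on simulated data. Symbols, types and exon lengths come from GENCODE M21, promoters from RefSeq.

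The numbers in the labels pair the depots, with the same sex and age for each number. Deviations from group means of same-numbered libraries correlated with a median of 0.202 (lowest 0.0474). Among the 4 white fat libraries of the same sex and age, 13 of 16 brown fat libraries correlated best with their own number. The members and gene lists were chosen with earlier results of these data known. Named single genes are list members, a set of genes always followed, the 15 largest called differences per direction (mean of at least 500 in the higher depot, all 16 animals alike), up to 6 genes per direction of smallest adjusted p in each test between groups (mean of at least 100) and the 12 highest genes per table of those in 1 table only. Coordinates are of GRCm38.p6. A few genes that these rules name are not reported here.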

Additional observations from a re-analysis of the deposited data

Results flagged for a closer look

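In groups of 4 animals of a sex and age, 1 animal stood far from the other 3 in the depot difference of 5 of 84 gene and group combinations looked at (21 genes); chance flags about 1 in 20. Female 756 (20 weeks) was low for Fabp3 (6.26) and Cox8b (4.29), and it also had high Ucp1 in white fat. The others were Adipoq in female 786 (-0.61), Fabp5 in female 646 (-0.76) and Cox8a in male 704 (2.06).

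Tests between groups picked out the following differences of the depot difference, all on the log2 scale and with adjusted p below 0.05. Females minus males gave 4.25 for Foxp2, 1.27 for Col8a1, 0.88 for Enpp2, 0.77 for Cyp1b1, 0.73 for Plce1, 2.01 for Fer1l6, 0.48 for Adipoq and 1.27 for Nnat. The same subtraction gave -3.99 for Nrn1, -0.91 for Postn, -1.99 for Cxcl14, -1.47 for Plekha6, -1.10 for Kng2 and -2.13 for Mmp3. At 30 minus 20 weeks, Cxcr4 gave 0.72, Col28a1 0.85, Cdsn 1.24, Mr1 0.57, Gprin3 1.12, Ifngr1 0.37 and Lep 0.95. Slc4a4 gave -0.91, Sema3f -1.18, Gldc -1.16, Thbd -0.83, Hip1r -0.53 and Cdv3 -0.38.

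High-fat minus low-fat gave 3.30 for Eya2, 0.88 for Plekha2, 2.87 for Mgl2, 2.83 for Slc2a3, 0.99 for Atp11a and 1.83 for Gpc1. It gave -1.79 for Lss, -1.37 for Acsf2, -1.24 for Ppp2r5b, -2.74 for Aldh1a7, -1.45 for Echdc1 and -0.94 for Gprc5b. SM/J minus LG/J gave 1.58 for Fam129a, 3.71 for H2-Q10, 1.89 for Clmp, 2.18 for Nid2, 3.14 for Gpt2 and 2.69 for Cachd1. It gave -4.08 for C4a, -1.52 for Rab3ip, -0.89 for Kif16b, -4.67 for Aldh1a7, -1.43 for Ppa1 and -1.63 for Nupr1.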

How the results depend on the processing

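Depot calls of 1366 and 1927 genes stayed between 1351 and 1386 (brown fat) and between 1914 and 1938 (white fat) with any 1 animal left out. They were 5461 and 5343 with no limit on the fold and 406 and 624 at a difference of at least 2 on the log2 scale. Without the animal pairing (no replicate block) the depot calls stayed within 1.5 times, and those by sex were 131 and 76 and those by age 0 and 2 (limma, 1582 genes at an unadjusted p below 0.05). Of 5006 depot values of the 173 genes named for their depot difference, 115 lost the call, 48 of them because the limit was a difference of 2, and 18 gained it. With scaling to the total and as deposited, Acly, Fasn, Gata2, Gdf15, Hoxc4, Meox1 and Pparg fell below the limit of 1, and 6 genes lost the call with some 1 animal left out (Acaa1b, Acly, Fasn, Gdf15, Hoxb6 and Meox1). Of single genes, small differences changed sign: Cebpa (-0.049) and Plin1 (-0.054) with scaling to the total, -0.10 and -0.10 as deposited, Fabp4 in females (0.023) and without the 4 animals high in muscle markers (0.0012), and Lrrn4 in females (0.18) and at 30 weeks (0.022). The cause was not tested.

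Sex and age calls were unstable. Leaving out 1 animal gave 155 to 371 and 107 to 439 genes by sex, where the lowest counts were without male 653 and the highest without animal 700. By age it gave 1 to 212 and 7 to 241, with 212 and 241 without animal 862, 112 and 166 without animal 734, and 1 and 7 without animal 655; 14 and 13 of the 16 fits moved by over 1.5 times. Of 275 values of the 12 genes named for age, 68 lost the call, spread over 11 genes (Ifngr1 17, Gprin3 13, Mr1 11, Col28a1 9 and Cdsn 7 alternatives among them) and none for Slc4a4; the genes named for sex, diet and strain kept their calls in each alternative run. Without the 4 animals high in muscle markers, chosen after seeing the data, the counts were 51 and 25 by sex and 0 and 1 by age (1571 genes at an unadjusted p below 0.05). Age gave 8 genes greater at 30 weeks with scaling to the total, and 1 and 7 with limma without a trend and with robust variance. Diet gave 5409 and 980 genes with scaling to the total and 6474 and 757 as deposited; strain counts stayed within 1.5 times in each alternative run.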
